A study of Cucurbita pepo with 23 samples.

Results

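E3 ubiquitin ligases and F-box proteins were described in the nectaries of squash (*Cucurbita pepo*, Crookneck Yellow Squash) across the hours around anthesis. Members were the genes whose description names an E3 ubiquitin ligase, a U-box domain, an F-box, a RING finger or a RING-H2 finger. Descriptions with the words auxin, UNUSUAL FLORAL or EIN3 were left out, which set aside 3 EIN3-binding F-box genes. The rule used names only and no measured value. It found 263 of 8861 genes, which belong to 251 distinct loci of melon, the relative whose RefSeq entries name the genes.

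RNA was sequenced from hand-dissected nectaries of female and male flowers of the same cultivar at −24, −15, 0 and +9 hr from anthesis, when the flower opens and nectar flows. The sample labels give −12 and +12 hr for the second and the last timepoint, and the hours of the study's text are used here. Each sex and timepoint had 3 libraries, except for female −15 hr nectaries with 2, giving 23 in all. No group had received a treatment or carried an altered gene. The sources used here do not say whether libraries came from separate plants or from pooled flowers, so p-values measure only the spread between libraries.

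Ubiquitin is a small protein that is joined to other proteins, often to mark them for breakdown by the proteasome. An E1 enzyme activates it, an E2 enzyme carries it, and an E3 ligase selects the target. RING and U-box ligases bring the E2 and the target together, whereas HECT and RING-between-RING (RBR) ligases first take ubiquitin onto themselves. F-box proteins are the target receptors of SCF ligases, in which a cullin and SKP1 hold the F-box protein. Plants have large families of these proteins, and many act in light, hormone, defence and stress responses.

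By name, the 263 members comprised 90 F-box proteins, 36 U-box proteins (PUB with a number below), 12 ATL-type RING-H2 proteins, 11 RING proteins with ankyrin repeats, 7 HECT ligases, 6 SINA proteins, 5 RING proteins of the endoplasmic reticulum, 3 RBR ligases, 2 BRE1-like ligases and 91 other RING or E3 entries. Classes followed the words of the description only. Both genes named CHIP, and PUB24-like, were thus counted among the other entries and not as U-box proteins. The ATL class took in RHA4a, which is named RING-H2 but not ATL. The F-box proteins held 15 with leucine-rich repeats, 14 with kelch repeats, 9 tubby-like, 6 of the PP2 type and 46 others. There were 206 distinct descriptions, and 42 of these were held by more than 1 member. A name is that of the best melon match. For a few members the Arabidopsis gene that the deposited table pairs with the entry is not the one of the name, as for 1 of the 2 genes named CHIP.

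The values are the authors' upper-quartile normalized expression scores, rounded to whole numbers. They are not read counts and carry no correction for gene length, so levels are compared between samples and not between genes. Library sums ran from 9269760 to 16139522, and the upper quartile from 1028 to 1122. Read depth is unknown. The 3 nectary marker genes found in the table summed to at least 96244 in every −24, −15 and 0 hr library except those of female −24 hr nectaries, where they reached only 589 to 1254. CRABS CLAW, a defining regulator of nectaries, was not analysed here. In bulk tissue, a change in the number of cells of a type and a change in RNA per cell cannot be told apart. Female −24 hr replicate 3 stood apart. The members took 1.67% of its total, and 1.03% and 1.08% in replicates 1 and 2.

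The members' summed values took a larger share of the expression total at 0 hr and again at +9 hr than before. Their summed share was 1.03 to 1.67% at −24 hr, 1.23 to 1.28% at −15 hr, 2.13 to 2.27% at 0 hr and 2.72 to 3.44% at +9 hr in female nectaries. In male nectaries it was 1.42 to 1.49%, 1.2 to 1.36%, 1.76 to 2.19% and 2.8 to 3.39%. In both sexes every +9 hr library lay above every 0 hr library, and every 0 hr library above every earlier one. Library totals dropped between these last timepoints, with 14809893 to 16139522 at 0 hr and 9269760 to 11376057 at +9 hr, while the members' own sums overlapped, at 318664 to 361207 and then 252457 to 338233 in female and 283887 to 349710 and then 281401 to 385939 in male nectaries. Sums are weighted toward members with high values. The median member value was 301 to 421, 375 to 388, 430 to 480 and 511 to 588 at the successive timepoints in female nectaries. In male nectaries it was 405 to 426, 383 to 399, 421 to 443 and 488 to 531. Group means were highest at 0 hr in both sexes for 72 members (27.4%, against 17.2% of all genes) and at +9 hr for 74 (28.1%, against 19.7%). Only 12 members (4.56%, against 12.1%) were highest at −24 hr in both sexes.

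A gene was called between 2 groups where limma gave an adjusted p under 0.05 (Benjamini-Hochberg, over all 8861 genes) and a change of at least 2-fold on the log2(value + 1) scale. From −15 to 0 hr, 88 members (33.5%) were called higher and 46 (17.5%) lower in female nectaries, against 20.5% and 31.1% of all genes. In male nectaries 76 (28.9%) were called higher and 39 (14.8%) lower, against 17.5% and 29.7%. Both sexes called 67 of the same members higher and 33 of the same members lower, and none in opposite directions. These were 25.5% and 12.5% of members, against 15.9% and 25.4% of all genes, of which 0.0903% went in opposite directions. Members thus rose more often than they fell while all genes did the reverse. The median log2 change was 0.358 among members and −0.305 among all genes in female nectaries, and 0.322 and −0.309 in male nectaries. With median-ratio scaling, which brings the all-gene medians to 0.0117 and 0.00197, the split was 109 higher and 30 lower in female nectaries, against 25.6% and 24% of all genes, and 102 higher and 29 lower in male nectaries, against 22.4% and 22.6%.

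The rise was seen in several classes, but not in all. Shares of all genes for this step were 20.5% higher and 31.1% lower in female and 17.5% and 29.7% in male nectaries. With median-ratio scaling they were 25.6% and 24% and then 22.4% and 22.6%. Of 36 U-box proteins 16 were higher and 6 lower at 0 hr in female and 16 and 5 in male nectaries. Of 90 F-box proteins 29 were higher and 16 lower in female and 22 and 12 in male nectaries, and with median-ratio scaling 35 and 9 and then 34 and 8. Among the F-box proteins, the 15 with leucine-rich repeats had 3 higher and 5 lower in female and 2 and 3 in male nectaries, with medians of −0.464 and −0.35, and the 6 of the PP2 type had 1 and 2 and then 1 and 3. Of 12 ATL proteins 6 were higher and 1 lower in female and 5 and 1 in male nectaries. Of 7 HECT ligases, 2 were higher in female and 1 in male nectaries, which became 4 and 3 with median-ratio scaling, and none was lower. Of the 91 other RING or E3 entries 27 were higher and 17 lower in female and 26 and 16 in male nectaries. The 11 ankyrin-repeat RING proteins had 3 and 3 and then 2 and 3, and the 6 SINA proteins 2 and 1 and then 1 and 1. The 5 of the endoplasmic reticulum had 2 and 1 and then 2 and 0. The 3 RBR ligases had 1 and 1 in each sex, and neither BRE1-like ligase was called.

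**Figure D1:**
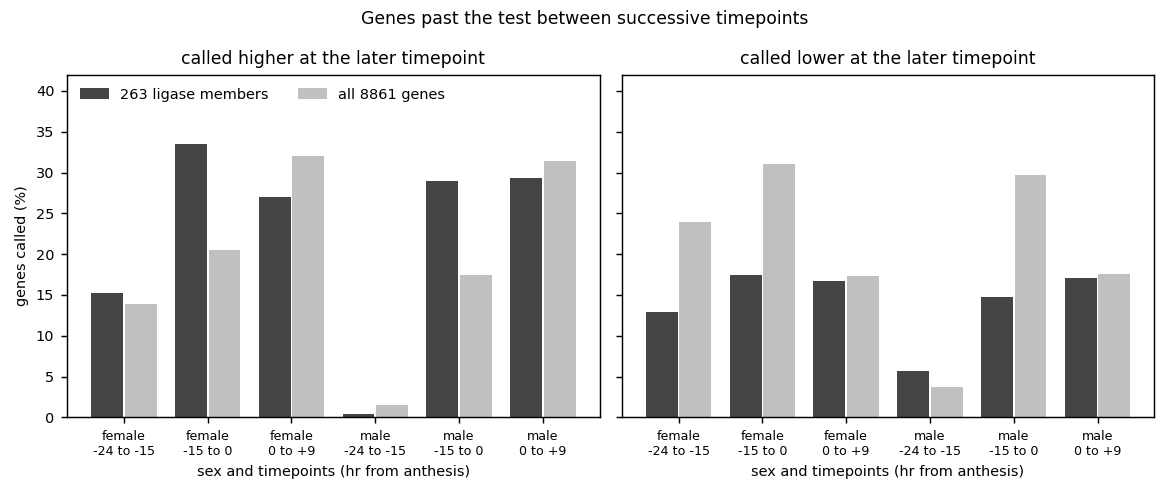
Percentage of genes called higher (left) or lower (right) at the later of 2 successive timepoints, by sex, for the 263 ligase members (dark bars) and all 8861 genes (light bars). From −15 to 0 hr, 33.5% of members in female and 28.9% in male nectaries were called higher, against 20.5% and 17.5% of all genes.

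The phytochrome A-associated F-box protein XM_008456124.1, which the table pairs with Arabidopsis EID1, a regulator of phytochrome A signalling, had values of 147 and 217 in female −15 hr libraries and of 16586, 11142 and 9263 at 0 hr. In male nectaries the values were 130, 157 and 119 at −15 hr and 15153, 12750 and 13331 at 0 hr. It rose by 6.06 ± 0.57 (log2, SE) in female and 6.66 ± 0.51 in male nectaries (limma, adjusted p = 8.82e-08 and 8.09e-09). The +9 hr values were 2462, 537 and 292 in female and 199, 193 and 531 in male nectaries, with log2 changes of −4.04 ± 0.51 and −5.64 ± 0.51 (limma, adjusted p = 2.65e-06 and 3.27e-08).

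The COP1-like gene XM_008460765.1 shares its name with COP1, the ligase that represses light responses in dark-grown Arabidopsis seedlings. Its values were 1 and 15 at −15 hr and 2175, 1428 and 2308 at 0 hr in female nectaries, and 17, 5 and 13 followed by 2027, 1318 and 813 in male nectaries. The log2 rises were 8.41 ± 0.79 and 6.82 ± 0.70 (limma, adjusted p = 7.9e-08 and 2.29e-07), sizes that depend on the 1 added to such low −15 hr values. By contrast, the member named COP1 itself, XM_008458180.1, lay between 193 and 391 in all 23 libraries and was called in no step. Both are paired with the same Arabidopsis gene.

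SKIP16-like (XM_008440280.1), an F-box protein named for its contact with SKP1, dipped at −15 hr before it peaked. Female values were 135, 125 and 225 at −24 hr, 9 and 35 at −15 hr, 3221, 2865 and 4106 at 0 hr and 959, 261 and 308 at +9 hr. Male values were 415, 361 and 182, then 52, 35 and 22, then 2761, 2728 and 2413, and then 1396, 568 and 912. The groups of successive timepoints did not overlap in either sex. The rule by which genes were named required this for the steps to −15 and 0 hr. Across the 6 steps, 34.6 to 77.6% of all genes had no overlap. SKIP16-like and COP1-like were the only 2 of 263 members (0.76%) called in all 6 steps. That share was not counted over all genes. For COP1-like the female call from −24 to −15 hr was at an adjusted p of 0.0477 (limma), with values of 29, 31 and 10 at −24 hr that overlapped those at −15 hr. The log2 rises at 0 hr were 7.47 ± 0.56 and 6.22 ± 0.50 (limma, adjusted p = 6.26e-09 and 1.17e-08).

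U-box protein PUB4 (XM_008446339.1) had values of 156 and 93 at −15 hr and 9198, 6690 and 7993 at 0 hr in female nectaries. Male values were 64, 185 and 107 and then 8311, 6162 and 4790. It rose by 6.02 ± 0.46 and 5.84 ± 0.41 and fell at +9 hr by 2.67 and 3.41 (limma, adjusted p = 6.44e-09, 3.05e-09, 1.88e-05 and 9.63e-07). PUB19-like (XM_008448786.1), a relative of an Arabidopsis ligase that limits abscisic acid responses, went from 66 and 96 to 2182, 1923 and 2110 in female nectaries. Its male values were 61, 120 and 527 at −15 hr, with replicate 3 the highest, and 1813, 1474 and 1886 at 0 hr. The log2 rises were 4.68 ± 0.74 and 3.44 ± 0.67 (limma, adjusted p = 2.99e-05 and 0.000215).

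Among RING ligases, RNF12-A-like (XM_008445686.1) rose from 267 and 230 to 3755, 3234 and 4371 in female nectaries and from 205, 139 and 197 to 3482, 2362 and 2120 in male nectaries. The log2 rises of 3.92 ± 0.33 and 3.86 ± 0.30 were followed by falls of 2.84 and 3.91 (limma, adjusted p = 2.45e-08, 8.53e-09, 3.89e-07 and 5.06e-09). The F-box protein SKP2A (XM_008443347.1), which in Arabidopsis acts on cell-cycle factors and was chosen here after its values were seen, lay between 16067 and 20455 in the 6 libraries of 0 hr. It was 2398 and 2461 in female and 2739, 4163 and 2278 in male −15 hr libraries (log2 rises of 2.83 ± 0.51 and 2.69 ± 0.46; limma, adjusted p = 0.000112 and 5.97e-05).

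A pair of members were almost silent at −15 hr. F-box protein At4g05010-like (XM_008441685.1) was at 0 and 3 in female −15 hr libraries and at 2159, 3133 and 2681 at 0 hr, and at 4, 0 and 7 and then 987, 645 and 640 in male nectaries. It was called higher in both sexes (limma, adjusted p = 9.46e-07 and 6.61e-06). At +9 hr its female values of 5567, 93 and 397 spanned the 0 hr range, with replicate 1 the highest. The putative ligase LIN-1 (XM_008468255.1) was listed at 0 in both female −15 hr libraries and at 0 or 1 in the male ones, and at 398, 143 and 190 in female and 235, 98 and 45 in male 0 hr libraries (limma, adjusted p = 2.8e-07 and 7.4e-07).

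**Figure D2:**
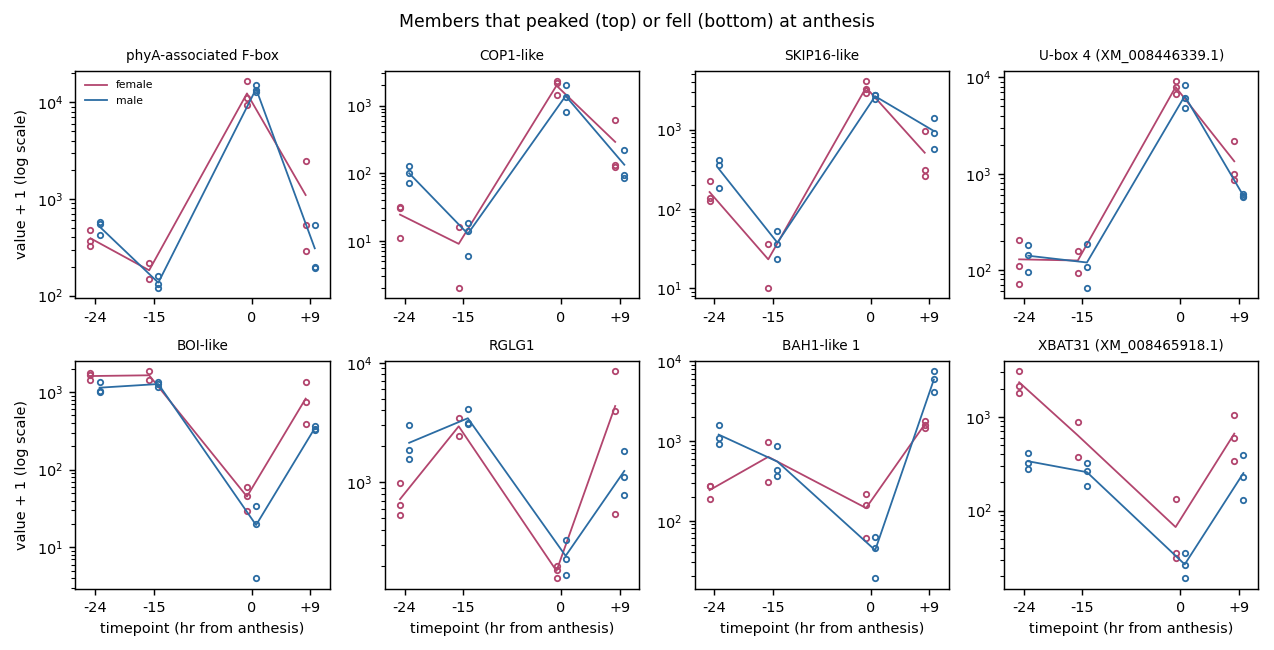
Values of 8 members in each library (open circles, plotted as value + 1 on a log axis) against hours from anthesis, with lines through the group means of female (red) and male (blue) nectaries. The top row peaked at 0 hr in both sexes, for example the phytochrome A-associated F-box protein at 9263 to 16586, and the bottom row was lowest there, for example BOI-like at 3 to 59.

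A smaller set of members dropped at anthesis. BOI-like (XM_008460842.1), named for a RING ligase that limits cell death in Arabidopsis, had values of 1426 and 1852 at −15 hr and 28, 45 and 59 at 0 hr in female nectaries. Male values were 1360, 1155 and 1279 and then 3, 19 and 33. It fell by 5.24 ± 0.59 and by 6.50 ± 0.53 and rose again at +9 hr by 4.08 and 4.61, to 390, 741 and 1329 in female and 365, 337 and 320 in male nectaries (limma, adjusted p = 6.28e-07, 1.36e-08, 3.01e-06 and 4.9e-07).

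RGLG1 (XM_008464423.1), a RING ligase of abscisic acid signalling in Arabidopsis, fell from 2439 and 3427 to 156, 199 and 184 in female nectaries and from 3061, 3124 and 4100 to 167, 226 and 328 in male nectaries. The log2 changes were −4.01 ± 0.69 and −3.87 ± 0.62 (limma, adjusted p = 6.78e-05 and 3.03e-05). Its female +9 hr values of 542, 8495 and 3979 varied more than its male ones of 1100, 1832 and 786. PUB11-like (XM_008456548.1) fell from 1882 and 1721 to 132, 181 and 153 and from 1602, 1732 and 2251 to 78, 200 and 386, with log2 changes of −3.54 ± 0.49 and −3.33 ± 0.43 (limma, adjusted p = 6.06e-06 and 3.19e-06).

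The ankyrin-repeat ligase XBAT31 (XM_008465918.1) went from 375 and 889 to 30, 133 and 34 in female nectaries and from 324, 183 and 260 to 18, 34 and 25 in male nectaries. It fell by 3.46 ± 0.58 and by 3.27 ± 0.52 and recovered at +9 hr by 3.50 and 3.14 (limma, adjusted p = 5.5e-05, 3.04e-05, 1.43e-05 and 3.88e-05). SINA-like 10 (XM_008458874.1) moved the same way, with 31, 60 and 58 in female and 25, 27 and 22 in male nectaries at 0 hr and 850, 298 and 523 and 593, 658 and 586 at +9 hr. The PP2-A15 gene, an F-box protein with a lectin-like domain of phloem proteins, is represented by 2 entries of 1 locus. The first (XM_008444561.1) fell from 4981 and 3241 to 209, 243 and 155 in female nectaries, and from 2792, 2619 and 2859 to 292, 424 and 606 in male nectaries (log2 changes of −4.33 ± 0.37 and −2.70 ± 0.33; limma, adjusted p = 2.45e-08 and 1.48e-06). At +9 hr it was still low, with 316, 609 and 324 in female and 167, 231 and 188 in male libraries.

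Genes listed as markers of other tissues moved in the same step, whose timepoints also differ in the hour of collection. The green-tissue genes were those named for chlorophyll a-b binding, photosystem II or the small subunit of ribulose bisphosphate carboxylase. Of 18 green-tissue genes, 15 were called higher at 0 hr in female and 14 in male nectaries, and none lower. Their summed values were 342 to 2814 and 251 to 443 at −15 hr, and 32215 to 48458 and 19127 to 41037 at 0 hr. The 3 phloem genes summed to 223 to 324 at −15 hr and to 632 to 1639 at 0 hr over both sexes, with 3 called higher in female and 1 in male nectaries. None of the 4 pollen and anther genes was called in this step, and of the 4 xylem genes 1 was called higher and 1 lower in each sex. The part of these tissues in the changes of the ligase genes was not tested.

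From 0 to +9 hr, as secretion ended, 71 members (27%) were called higher and 44 (16.7%) lower in female nectaries, against 32% and 17.3% of all genes. In male nectaries 77 (29.3%) were called higher and 45 (17.1%) lower, against 31.4% and 17.6%. The members' shares lay near those of all genes. Both sexes called 56 of the same members higher (21.3%, against 23.9% of all genes) and 28 of the same members lower (10.6%, against 12.3%). The balance depended on scale. With median-ratio scaling the split was 59 higher and 62 lower in female nectaries, or 22.4% and 23.6% against 26.7% and 22.2% of all genes, and 66 higher and 59 lower in male nectaries, or 25.1% and 22.4% against 27.4% and 21.8%. In the same step all 3 nectary markers, whose expression depends on stage, were lower in each sex, with medians of −6.09 and −5.01. Of the 18 green-tissue genes 2 were higher and 7 lower in female and 4 and 2 in male nectaries, and of the 4 xylem genes 2 were higher and 1 lower in each. Their part in the changes of the members was not tested.

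Several members that were low at 0 hr were higher after secretion, and some were hardly found before it. PUB21-like (XM_008467314.1) was listed at 0 in all 11 libraries of the −24 and −15 hr timepoints. It reached 1, 3 and 13 in female and 0, 1 and 0 in male 0 hr libraries, and 655, 109 and 581 and 143, 33 and 116 at +9 hr (limma, adjusted p = 4.74e-06 and 4.67e-06). ATL40-like (XM_008451250.1), a RING-H2 protein, had values of at most 11 at −24 and −15 hr, 20, 22 and 54 and then 683, 189 and 579 in female nectaries, and 14, 6 and 10 and then 283, 66 and 249 in male nectaries. It was called higher at +9 hr in both sexes (limma, adjusted p = 0.00119 and 0.000796). DRIP2-like (XM_008451126.1), whose Arabidopsis counterpart marks the drought factor DREB2A for breakdown, went from 11, 5 and 3 to 43, 148 and 276 in female and from 0, 0 and 5 to 101, 54 and 91 in male nectaries. Its female −24 hr values were 55, 42 and 28 (rise at +9 hr, limma, adjusted p = 5.93e-05 and 2.92e-06).

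BAH1-like 1 (XM_008453360.1), related to an Arabidopsis RING ligase that limits phosphate uptake, rose from 59, 214 and 157 to 1609, 1779 and 1476 in female nectaries and from 62, 45 and 18 to 4111, 7538 and 6097 in male nectaries. The log2 rises were 3.67 ± 0.49 and 7.24 ± 0.49 (limma, adjusted p = 4.59e-06 and 1.85e-09). RCHY1 (XM_008468133.1), a RING and CHY zinc finger protein, was at 13400, 27302 and 12233 in female and 25231, 28197 and 26283 in male +9 hr libraries. At 0 hr they were 4068, 5026 and 3587 and 2671, 1449 and 1067, so that all 6 libraries of the later timepoint exceeded those of the earlier one (log2 rises of 1.98 ± 0.41 and 4.05 ± 0.41; limma, adjusted p = 0.000394 and 1.31e-07). Another gene of this name, XM_008440591.1, was called lower at +9 hr than at 0 hr in female nectaries. Without female 0 hr replicate 1 its change was −0.995 and no longer called. The RING ligase RLIM (XM_008456804.1) rose from 44, 60 and 72 to 412, 300 and 415 and from 32, 24 and 38 to 465, 598 and 576 (2.67 ± 0.32 and 4.10 ± 0.32; limma, adjusted p = 1.67e-06 and 7.22e-09).

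Other members that had not been called higher at 0 hr fell as secretion ended. PUB15 (XM_008449968.1) had values of 220, 180 and 106 at 0 hr and 65, 15 and 10 at +9 hr in female nectaries, and 205, 278 and 261 and then 18, 16 and 10 in male nectaries. Its log2 changes were −2.84 ± 0.50 and −4.02 ± 0.50 (limma, adjusted p = 7.71e-05 and 1.44e-06). RMA1H1-like (XM_008441639.1), a ligase anchored in the endoplasmic reticulum, fell from 5293, 2387 and 2808 to 475, 221 and 287 and from 4258, 3593 and 1809 to 269, 368 and 306 (−3.40 ± 0.38 and −3.27 ± 0.38; limma, adjusted p = 7.1e-07 and 5.83e-07).

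The step from −24 to −15 hr differed between the sexes. In female nectaries 40 members (15.2%) were called higher and 34 (12.9%) lower, against 13.9% and 24% of all genes. In male nectaries 1 member (0.38%) was called higher and 15 (5.7%) lower, against 1.57% and 3.7%. The difference between the changes of both sexes was itself past the test (adjusted p under 0.05) for 61 members. The female change was the higher one for 46 (17.5%, against 13.5% of all genes) and the lower one for 15 (5.7%, against 16.4%). Without female −24 hr replicate 3, the female counts became 54 higher and 33 lower, and those of the difference 66 and 20. Without female −15 hr replicate 1, which leaves 1 library in that group that is assumed to vary like the others, the female count of lower calls was 22, and it was 22 to 33 over all single libraries left out. The male count of lower calls was 8 without male −15 hr replicate 2 and 9 without male −24 hr replicate 1.

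The members with the largest female rises began far below their male levels. The probable F-box protein At4g22030 (XM_008448116.1) had values of 11, 14 and 12 in female −24 hr libraries and of 834 and 1362 at −15 hr, whereas male values were 502, 550 and 613 and then 1326, 1066 and 759. The female rise was 6.33 ± 0.52 (limma, adjusted p = 3.47e-08), the male difference was 0.89 ± 0.46 (adjusted p = 0.324), and these changes differed by 5.44 ± 0.70 (adjusted p = 2.56e-05). PUB45-like (XM_008446224.1) was at 92, 78 and 90 and then 3646 and 2065 in female nectaries. In male nectaries it was between 2432 and 3988 at both timepoints. Its female rise was 4.97 ± 0.69 and its difference between the sexes' changes 4.86 ± 0.92 (limma, adjusted p = 1.44e-05 and 0.000679).

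F-box protein At5g67140-like (XM_008459536.1) had female values of 63, 55 and 105 and then 1512 and 1315, against 1515, 1378 and 1889 and then 1373, 1535 and 1192 in male nectaries. PUB21-like (XM_008458813.1), another gene than the one named above, had 57, 52 and 77 and then 967 and 1166, against 1120, 881 and 963 and then 1418, 2110 and 1644. The RING ligase At4g11680 (XM_008464803.1) had 114, 106 and 132 and then 2147 and 1588, against male values between 1204 and 2263. The female rises of these genes were 4.28 ± 0.39, 4.10 ± 0.37 and 3.97 ± 0.31 (limma, adjusted p = 1.11e-07, 1.11e-07 and 1.81e-08). The male values of all 3 differed by less than 2-fold between the timepoints, and none was called.

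**Figure D3:**
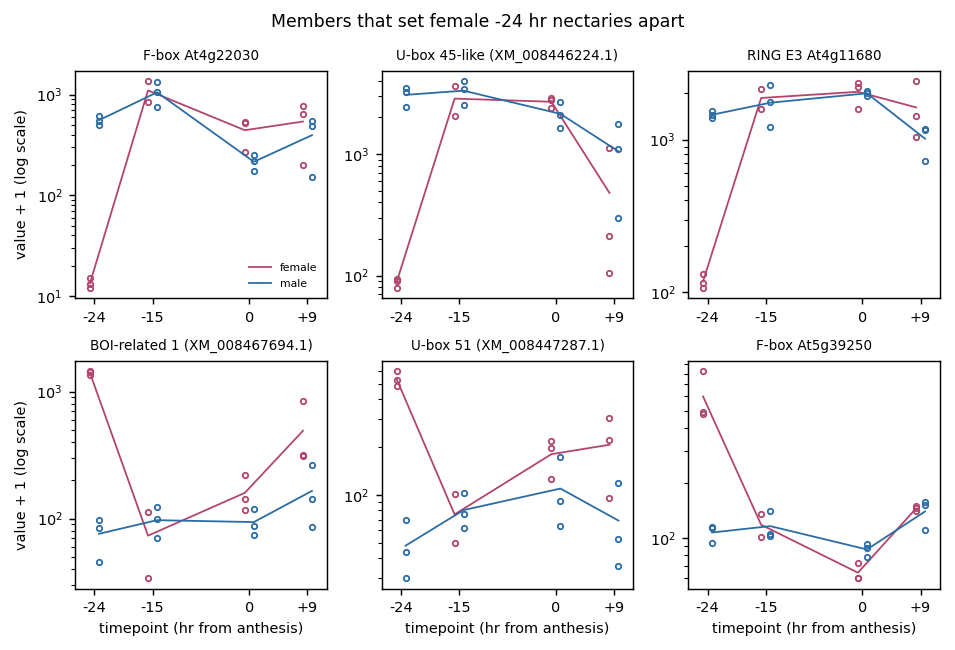
Values of 6 members in each library (open circles, value + 1 on a log axis) against hours from anthesis, with lines through the group means of female (red) and male (blue) nectaries. Female −24 hr libraries were far below the male ones in the top row (11 to 14 against 502 to 613 for At4g22030) and above them in the bottom row (1352 to 1448 against 45 to 96 for BOI-related ligase 1).

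Fewer members showed the reverse. BOI-related E3 ubiquitin-protein ligase 1 (XM_008467694.1) had values of 1448, 1352 and 1414 in female −24 hr libraries and of 33 and 112 at −15 hr, with male values between 45 and 122 at both. The female fall was −4.50 ± 0.53 and differed from the male change by −4.89 ± 0.72 (limma, adjusted p = 2.78e-06 and 7.21e-05). PUB51 (XM_008447287.1) went from 526, 598 and 482 to 100 and 49 in female nectaries, and was at 43, 69 and 29 and then 61, 75 and 102 in male nectaries (−2.91 ± 0.55; limma, adjusted p = 0.0003). F-box protein At5g39250 (XM_008450567.1) went from 477, 492 and 824 to 134 and 100, against male values between 93 and 140 (−2.31 ± 0.28; limma, adjusted p = 3.99e-06). RHF1A (XM_008460344.1), a RING ligase that acts in gamete formation in Arabidopsis, went from 257, 209 and 197 to 33 and 47 (−2.45 ± 0.41; limma, adjusted p = 9.28e-05).

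In male nectaries the only member called higher at −15 hr was PUB14 (XM_008448618.1), at 840, 777 and 1075 and then 1786, 2703 and 2025. It was also higher in female nectaries, at 266, 269 and 440 and then 1897 and 2199 (1.27 ± 0.22 in male and 2.69 ± 0.25 in female nectaries; limma, adjusted p = 0.00137 and 1.35e-07). RHA1B-like (XM_008439091.1) fell in male nectaries from 466, 378 and 458 to 150, 54 and 162, and PUB35-like (XM_008438793.1) from 961, 900 and 789 to 275, 155 and 352 (−1.97 ± 0.39 and −1.83 ± 0.30; limma, adjusted p = 0.0044 and 0.000681). Another 3 members, noticed after their values were seen, were called in opposite directions in the sexes (1.14% of members, against 0.598% of all genes). These were the HECT ligase UPL4 (XM_008444417.1; 1.13 in female and −1.30 in male nectaries), F-box protein CPR30-like (XM_008451179.1; 1.01 and −1.32) and the ligase At3g02290-like (XM_008439086.1; 1.15 and −1.28). In each of them the female −24 hr libraries lay below every male −24 hr library.

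At −24 hr, 25 members (9.51%) were called higher and 61 (23.2%) lower in female than in male nectaries, against 24.6% and 16.6% of all genes. The median difference was −0.262 among members and 0.128 among all genes. Among F-box proteins 5 were higher and 20 lower, among U-box proteins 5 and 13, and among ATL proteins 2 and 3. SINAT3-like (XM_008461768.1), of the SINA family, was at 506, 466 and 392 in female and 104, 89 and 57 in male libraries (2.47 ± 0.36; limma, adjusted p = 1.62e-05). XBAT31 (XM_008465918.1) was at 1799, 2135 and 3061 against 318, 279 and 406. The nectary markers moved the same way as the lower members, at 589 to 1254 in female and 96244 to 207113 in male −24 hr libraries, with all 3 called lower. Of the xylem genes 2 of 4 were higher, with sums of 987 to 1130 against 418 to 511, and of the green-tissue genes 3 of 18 were higher and 5 lower. The part of these markers in the differences was not tested.

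At −15 hr no member was called between the sexes, with 9 at an unadjusted p under 0.05 in limma, and 0.0903% and 0.0451% of all genes were called higher and lower. At 0 hr again no member was called, with 50 at an unadjusted p under 0.05 and 0.181% and 0.0677% of all genes called. Without female 0 hr replicate 1 the calls at 0 hr became 7 higher and 2 lower. The changes from −15 to 0 hr differed between the sexes for no member, with 19 at an unadjusted p under 0.05, and for 0% and 0.0113% of all genes. These counts do not show that the sexes were alike. The study's own test, with other thresholds, did report genes that differed between the sexes at 0 hr. Among those higher in female nectaries was UNUSUAL FLORAL ORGANS-like, which lies outside the members.

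At +9 hr, 22 members (8.37%) were higher and 14 (5.32%) lower in female nectaries, near the 8.36% and 6.36% of all genes. The counts moved with single libraries, to 36 and 26 without female +9 hr replicate 1, to 14 and 7 without male +9 hr replicate 2, and to 8 lower without male +9 hr replicate 3. PUB27 (XM_008442802.1) was at 1568, 1463 and 1385 in female and 328, 425 and 377 in male libraries (1.97 ± 0.50; limma, adjusted p = 0.0105). The BIG BROTHER-related-like ligase (XM_008468516.1), named for a limiter of organ size in Arabidopsis, was at 154, 375 and 131 against 20, 42 and 77 (2.26 ± 0.53; limma, adjusted p = 0.00662). XBAT35 (XM_008440290.1), 1 of several entries of its locus, was lower in female nectaries, at 478, 141 and 134 against 805, 901 and 610 (−1.87 ± 0.46; limma, adjusted p = 0.00867). The other XBAT35 entries were not called in this comparison.

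The change from 0 to +9 hr differed between the sexes for 3 members with the higher change in female (1.14%) and 11 with the lower (4.18%), against 2.7% and 4.73% of all genes. Without female +9 hr replicate 1 these counts were 21 and 29. The counts ran from 1 to 21 and from 7 to 29 over all single libraries left out, and each of the 3 members described next kept its call. Tubby-like F-box protein 8 (XM_008447542.1) was at 116, 289 and 349 and then 262, 194 and 236 in female nectaries, whereas in male nectaries it rose from 85, 81 and 76 to 480, 527 and 425. The changes differed by −2.53 ± 0.47 (limma, adjusted p = 0.00465). The F-box protein SKIP16 (XM_008440848.1) was at 252, 421 and 352 and then 321, 155 and 194 in female nectaries, and went from 254, 229 and 269 to 584, 639 and 487 in male ones (−1.82 ± 0.33; limma, adjusted p = 0.00465). EID1-like F-box protein 2 (XM_008451931.1) was at 672, 878 and 866 and then 445, 496 and 423 in female nectaries, and at 641, 509 and 487 and then 750, 1053 and 1235 in male ones (−1.69 ± 0.31; limma, adjusted p = 0.00465).

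The −24 and 0 hr nectaries share a clock time, as do those of −15 and +9 hr, so these pairs can be compared without a difference in the hour of collection. They share libraries with the steps above. From −24 to 0 hr, 109 members (41.4%) were higher and 51 (19.4%) lower in female nectaries, against 25.6% and 38% of all genes. In male nectaries 73 (27.8%) were higher and 48 (18.3%) lower, against 17.5% and 31.1%. With median-ratio scaling the splits were 132 and 34 in female nectaries (50.2% and 12.9%, against 31.8% and 31.3% of all genes) and 102 and 35 in male nectaries (38.8% and 13.3%, against 23.3% and 23.6%). From −15 to +9 hr, 99 members (37.6%) were higher and 23 (8.75%) lower in female nectaries, against 25.5% and 21.9%, and 91 (34.6%) and 28 (10.6%) in male nectaries, against 24.2% and 19.4%. Members were called higher more often than all genes in each of these comparisons. From −24 to 0 hr, 15 of 18 green-tissue genes were higher in female nectaries, and 10 were higher and 1 lower in male nectaries. From −15 to +9 hr, 14 of 18 were higher in female and 15 in male nectaries, with medians of 3.93 and 5.72. Of the 3 phloem genes 3 and 2 were higher, and all 3 nectary genes were lower in both sexes. Their part in the rise of the members was not tested.

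Between −15 and +9 hr the ATL class had the largest median change of the classes in both sexes, and the U-box class was also well above all genes. Of 12 ATL proteins, membrane RING-H2 ligases of which several answer to pathogen signals in Arabidopsis, 10 were higher at +9 hr than at −15 hr and 1 was lower in each sex. The median log2 changes were 2.68 in female and 2.18 in male nectaries. Of 36 U-box proteins, 20 were higher and 4 lower in female and 21 and 4 in male nectaries, with medians of 1.26 and 1.40. Of 90 F-box proteins, 29 were higher and 10 lower in female and 24 and 12 in male nectaries, with medians of 0.275 and 0.281. Of 7 HECT ligases, 2 were higher and none lower in each sex. The 5 RING proteins of the endoplasmic reticulum had 2 higher and 2 lower in female and 3 and 2 in male nectaries. Their medians were 1.22 and 1.70, the male one above that of the U-box class. The 11 ankyrin-repeat RING proteins had 4 and 0 and then 6 and 0, with medians of 0.599 and 1.04. The medians of all genes were 0.038 and −0.0299. ATL40-like (XM_008451250.1), with 0 and 0 in female and 2, 0 and 8 in male −15 hr libraries against at least 66 in every +9 hr library, was 1 of the 10. The ATL and U-box counts were the same with median-ratio scaling. U-box PUB27 (XM_008442802.1) rose by 5.03 ± 0.56 and 3.19 ± 0.50, and RCHY1 (XM_008468133.1) by 6.21 ± 0.46 and 6.77 ± 0.41 (limma, adjusted p = 4.7e-07, 2.58e-05, 4.17e-09 and 3.13e-10).

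Members with the same name did not always move together. Of the 2 genes named CHIP, a U-box ligase that works with heat shock chaperones, XM_008462228.1 rose at 0 hr from 418 and 485 to 1372, 1125 and 724 in female nectaries and from 336, 415 and 355 to 1550, 1299 and 1220 in male nectaries. The other, XM_008451102.1, went from 34 and 65 to 12, 20 and 11 and from 66, 46 and 57 to 22, 4 and 7. The log2 changes were 1.20 ± 0.25 and 1.87 ± 0.22 against −1.69 ± 0.57 and −2.54 ± 0.51 (limma, adjusted p = 0.000411, 1.16e-06, 0.0143 and 0.000287). The female fall was no longer called without female −15 hr replicate 2, at −1.24.

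The RBR ligases named ARI8 split likewise. XM_008447492.1 rose from 2409 and 2109 to 10861, 7837 and 8664 in female and from 2259, 2800 and 1816 to 12506, 10658 and 8560 in male nectaries. XM_008443547.1 went from 675 and 725 to 279, 342 and 383 and from 689, 450 and 572 to 248, 242 and 348. The changes were 2.00 ± 0.34 and 2.21 ± 0.31 against −1.07 ± 0.28 and −1.03 ± 0.25 (limma, adjusted p = 6.5e-05, 6.68e-06, 0.00239 and 0.00146). The falls passed the fold threshold narrowly and were −0.75 and −0.71, and not called, with median-ratio scaling. Leaving out female 0 hr replicate 1 gave −0.95 in female nectaries, and leaving out male −15 hr replicate 1 or male 0 hr replicate 1 or 2 gave −0.88, −0.95 and −0.93 in male nectaries, each under 2-fold with an adjusted p between 0.00868 and 0.0123 (limma).

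A second RMA1H1-like gene, XM_008450066.1, rose at +9 hr while the first fell, from 128, 191 and 207 to 600, 957 and 833 in female and from 148, 99 and 126 to 609, 1043 and 677 in male nectaries (2.18 ± 0.41 and 2.61 ± 0.41; limma, adjusted p = 0.000164 and 2.34e-05). Of the genes named PUB4, XM_008446339.1 and XM_008441854.1 both peaked at 0 hr, the latter going from 130 and 124 to 4502, 2737 and 4982 in female nectaries, with log2 rises of 4.95 ± 0.48 there and 4.61 ± 0.43 in male nectaries (limma, adjusted p = 1.21e-07 and 6.28e-08). Another, XM_008462291.1, was at 397, 468 and 563 in female 0 hr libraries and rose to 1215, 1997 and 797 at +9 hr (1.40 ± 0.45; limma, adjusted p = 0.0113). Without female +9 hr replicate 2 that change was 1.06 and no longer called.

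**Figure D4:**
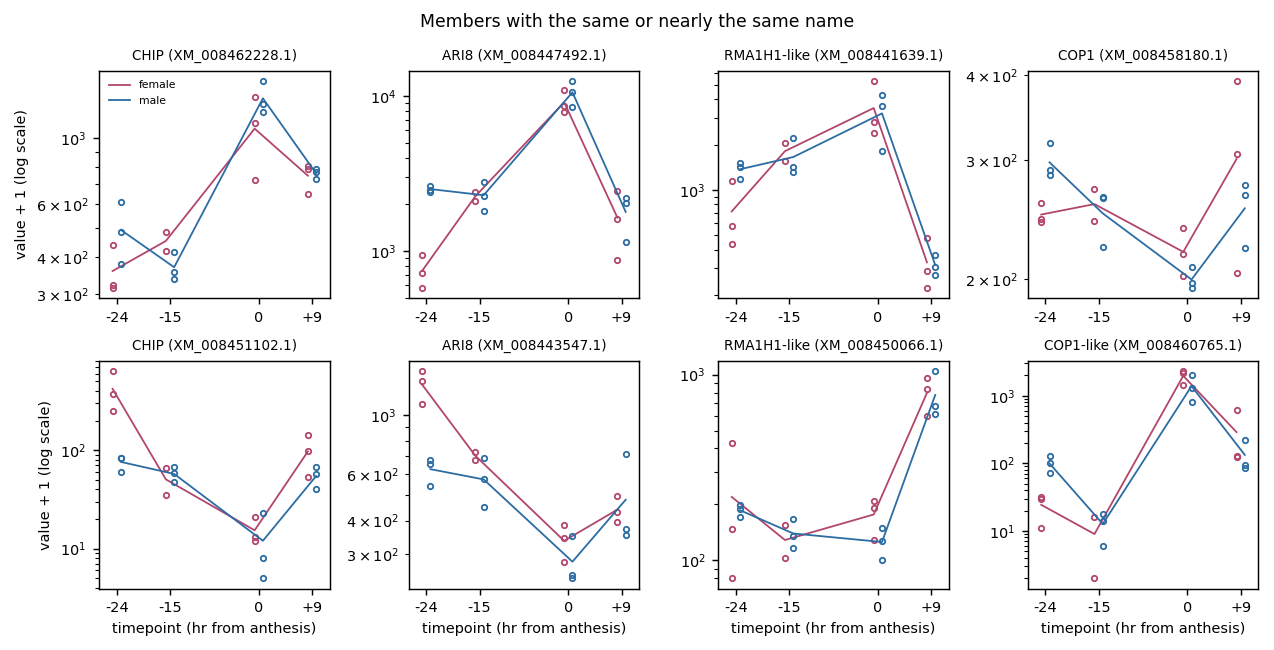
Values of 4 pairs of members with the same or nearly the same name in each library (open circles, value + 1 on a log axis) against hours from anthesis, with lines through the group means of female (red) and male (blue) nectaries. At 0 hr CHIP XM_008462228.1 was at 724 to 1550 and CHIP XM_008451102.1 at 4 to 22.

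There were 11 loci with more than 1 entry, 23 members in all. Entries of 1 locus may be transcript forms, and reads shared between them could have been split when contigs were matched. Over the 23 libraries the log2 values of the PP2-A15 pair correlated at 0.951 and those of transmembrane E3 ubiquitin-protein ligase 1-like at 0.973. The pair of RING1-like entries XM_008457533.1 and XM_008457534.1 correlated at only 0.0243. The first was at 357 to 752 in all libraries, while the second was at 155 to 547. Of the XBAT35 entries, XM_008440288.1 fell at 0 hr to between 74 and 108 in all 6 libraries and rose at +9 hr to between 469 and 810. XM_008440290.1 was between 136 and 519 at 0 hr and was called in no step, and their correlation was −0.0235. These are descriptions over libraries that share depth and timepoint.

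The rest of the ubiquitin pathway was examined by name for comparison with the ligases. The single E1 gene was not called at 0 hr and was lower at +9 hr in both sexes (−1.21 and −1.03). Of 25 E2 genes, 6 were higher and 1 lower at 0 hr in female and 3 and 2 in male nectaries. With median-ratio scaling the E2 splits were 9 and 0 and then 5 and 0. The E2 medians without it were 0.124 and 0.191, against −0.305 and −0.309 among all genes. Of all genes 20.5% were higher and 31.1% lower in female and 17.5% and 29.7% in male nectaries. Of 11 genes of the SCF and cullin core, 2 were higher and 4 lower in female and 1 and 3 in male nectaries. With median-ratio scaling these splits were 2 and 3 in female and 2 and 2 in male nectaries. Cullin-1 (XM_008460250.1), the scaffold of SCF ligases, was higher at 0 hr in both sexes, with means of 3130 and then 7056 in female and 3020 and then 7162 in male nectaries. Cullin-1-like (XM_008440637.1) was lower in both, with means of 2032 and then 782 and of 1989 and then 895.

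NEDD8 is a ubiquitin-like protein that is joined to cullins and taken off by the COP9 signalosome. Of 16 genes linked to it, none was higher and 9 were lower in female nectaries, and 1 was higher and 7 lower in male nectaries, with medians of −1.38 and −0.791 against −0.305 and −0.309 among all genes, of which 31.1% and 29.7% were lower. With median-ratio scaling 1 was higher and 8 lower in female and 1 and 7 in male nectaries. COP9 subunit 7 (XM_008461553.1) had means of 1690 and 1680 at −15 hr and of 380 and 326 at 0 hr in female and male nectaries, and COP9 subunit 3 (XM_008443146.1) of 250 and 243 and then 68.3 and 68.3. CAND1 (XM_008453992.1), which binds cullins without NEDD8 and counts in both lists, had means of 942 and 951 and then 273 and 321. At +9 hr, 5 of the 16 were higher and 1 lower in female nectaries, and 4 and none in male nectaries, near the 32% and 31.4% of all genes called higher. Of 37 deubiquitinases, which take ubiquitin off again, 4 were higher and 8 lower at 0 hr in female and 4 and 7 in male nectaries, but with median-ratio scaling 6 and 5 and 6 and 4. Of 23 BTB proteins, target receptors of cullin-3 ligases, 7 were higher and 4 lower in female and 6 and 5 in male nectaries. With median-ratio scaling the BTB splits were 8 and 3 and then 7 and 5. Of 7 ubiquitin precursors 2 were higher and 2 lower in each sex. Of the 3 EIN3-binding F-box genes left out by the rule, 1 was higher and none lower in each sex.

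The members also differed in how steady they were. The coefficient of variation over the 23 libraries had a median of 59.33% among members, from 12.15 to 295.5%, against 65.95% among all genes. HECT ligases varied least of the classes with more than 2 members, with a median of 34.5%, and ATL proteins most, with 93.5%. Of the 12 ATL proteins 6 averaged under 100 over the libraries, and of the 7 HECT ligases none. RING proteins of the endoplasmic reticulum had a median of 85.2%, U-box proteins of 80.2% and F-box proteins of 53.9%. The highest group mean was less than 2 times the lowest for 20 members (7.6%, against 7.48% of all genes) and over 10 times for 79 (30%, against 38.6%). In no step were 55 members (20.9%) called, against 16.6% of all genes.

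UPL1-like (XM_008446675.1), a HECT ligase, was the steadiest member, with values from 2730 to 4038 and a coefficient of variation of 12.15%. The RING ligase At1g63170 (XM_008439865.1) was second at 16.59%, and 64th among all genes. Its values ran from 1842 to 3477, the highest being that of female −24 hr replicate 3, and it was called in no step. The study had chosen this gene for its stability in these libraries as the reference for quantitative PCR, so its rank is not independent evidence of steadiness. With median-ratio scaling its coefficient was 22.28%.

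**Figure D5:**
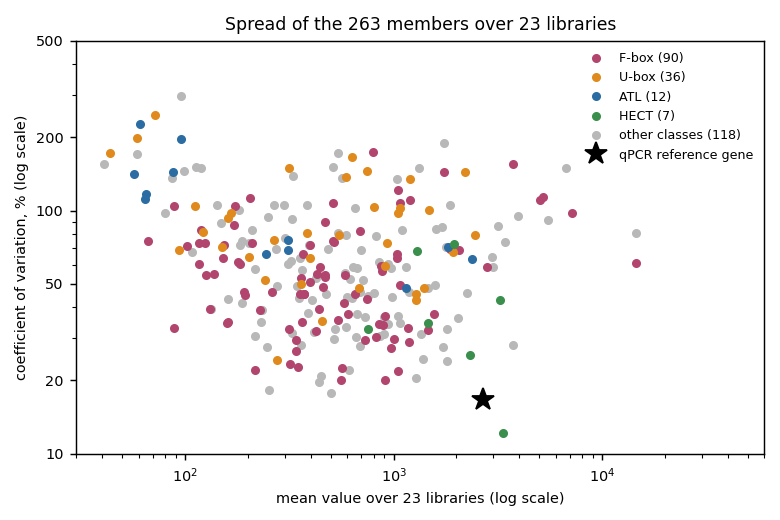
Coefficient of variation over 23 libraries (%, log axis) against mean value (log axis) for the 263 members, coloured by class, with the study's quantitative PCR reference gene as a star. The reference gene lies at 16.59%, with only UPL1-like lower at 12.15%. Medians were 93.5% for ATL and 80.2% for U-box proteins, and the highest value, 295.5%, lies among the other classes.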

How the data were processed

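The authors assembled the nectary reads with Trinity and matched contigs to the melon, squash and Arabidopsis genomes with blastn. They normalized by the upper quartile and deposited whole-number scores per gene and library, named here by their melon RefSeq entries. The counting tool is not named in the labels or the methods. Their p-value columns hold the authors' own comparisons and were not used.

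From these scores, log2(value + 1) was fitted with limma (version 3.58.1, R version 4.3.3) over 8 groups and 23 libraries, with a mean-variance trend and Benjamini-Hochberg adjustment over 8861 genes in each comparison. A gene was called at an adjusted p under 0.05 and at least 2-fold, and in comparisons of changes between the sexes at an adjusted p under 0.05 alone. No count model was used, since these are normalized values. The changes understate those of low genes, and no log2 change is given against a group listed at 0 throughout or nearly so. The scripts were tested on simulated data.

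Genes were named by a rule: the 5 called members with the largest changes each way in each step and sex comparison, without overlap between groups and where the higher group averaged 100 or more, the 5 with the largest changes shared by both sexes, the 3 with the lowest adjusted p for each difference between the sexes, the 5 steadiest and 5 most variable, the reference gene, and members sharing a locus or, with opposite calls, a description. Genes outside the members, and the few members said to be so, were chosen after their values were seen. Members and lists were chosen with earlier results of these data known. Alternatives were median-ratio scaling, a pseudocount of 10, a filter on low values, no trend, a fit on 1 sex, a replicate block and leaving out each library. No sequences were used here.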

Additional observations from a re-analysis of the deposited data

Results flagged for a closer look

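For 6 members named for the test of the difference itself, the change in female nectaries differed from that in male nectaries (limma, adjusted over 8861 genes). From −24 to −15 hr the female change in log2 value exceeded the male one by 5.44 for the F-box protein At4g22030 (XM_008448116.1), by 4.50 for At5g67140-like (XM_008459536.1) and by 3.76 for the ligase At4g11680 (XM_008464803.1). From 0 to +9 hr the female minus male change was −1.69 for EID1-like F-box protein 2 (XM_008451931.1), −2.53 for tubby-like F-box protein 8 (XM_008447542.1) and −1.82 for SKIP16 (XM_008440848.1). Each kept its call under every alternative run.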

How the results depend on the processing

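Median-ratio scaling gave 30 members lower from −15 to 0 hr in female nectaries, 2 higher in female than in male nectaries at 0 hr, a coefficient of variation of 22.28% for the reference gene and a members' median of 62.7%. With log2(value + 10), 2 members were higher in female nectaries at 0 hr, and 7 had the higher female change from 0 to +9 hr. Without the trend 1 was higher at 0 hr, and with a fit on 1 sex 3 rose in male nectaries from −24 to −15 hr. The other 184 counts and coefficients under such settings stayed within 1.5 times the main value or within the spread. Leaving out each library gave 22 to 33 lower for the female step to −15 hr, 8 to 12 lower for the male one, 0 to 7 higher and 0 to 2 lower in female nectaries at 0 hr, 14 to 36 higher and 7 to 26 lower at +9 hr, and, for differences between the sexes' changes, 0 to 1 higher to 0 hr and 1 to 21 higher and 7 to 29 lower to +9 hr. Of the named members' 143 tests, 8 lost their call under at least 1 setting and 22 on leaving out at least 1 library, and none changed direction. Replicate numbers showed no pairing of the libraries on average. Deviations of same-numbered libraries correlated at −0.0193 on average over 77 pairs (−0.503 to 0.27), and of others at 0.00924 (−0.287 to 0.587). Such averages cannot exclude that some libraries were paired. Female −15 hr replicate 2 is numbered 3 in its title. With a replicate block 86 members were higher and 47 lower from −15 to 0 hr in female nectaries, and no count moved by over 1.5 times. Read depth is unknown, so values under about 10 are read as low and not as absent.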
